A study of Saccharomyces cerevisiae with 11 samples.

Results

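The small subunit processome is the large assembly of proteins and RNA that forms on the nascent ribosomal RNA and carves out the 18S rRNA of the small ribosomal subunit. Its genes, listed as 56 factors of 18S rRNA processing and 40S subunit assembly, were followed by name across 11 Affymetrix Yeast Genome 2.0 arrays of histone H2A mutants of S. cerevisiae. The array annotation assigned a probe set to 55 of the 56 genes, out of 5415 genes tested in all, and the helicase gene DBP4 had none. Where a gene had several probe sets, the one with the highest mean signal was used. The values are MAS5 signals, background-corrected intensities on a linear scale, of poly(A) RNA from log phase cultures grown in YPD from an OD600 of 0.2 to 0.8.

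All 5 strains were Mat a, lacked both chromosomal H2A genes and carried H2A on a centromeric HIS3 plasmid, so that in every strain the only H2A was that of the plasmid. WT carried unchanged HTA1 (3 arrays). The H2A of R11 had an extra arginine, and that of K11 an extra lysine, at position 11 of the tail (2 arrays each). ΔS15 lacked the serine at position 15 (2 arrays), and R11ΔS15 carried the inserted arginine together with the serine deletion (2 arrays). The genotype entries of both R11ΔS15 samples name a lysine, whereas their titles and the strain list name an arginine, which is used here. The design text calls the arrays of a strain biological replicates. Signals of a-specific genes were high throughout, for example 3968 to 4606 for the pheromone receptor gene STE2, whereas STE3, the receptor gene of alpha cells, had 130 to 224 and the alpha-agglutinin gene SAG1 had 645 to 823.

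Ribosome synthesis begins when RNA polymerase I transcribes a long precursor that holds the 18S rRNA beside rRNAs of the large subunit. The U3 small nucleolar RNA pairs with this precursor, and around it the UtpA, UtpB and UtpC complexes, the Mpp10 complex and many single factors assemble into the processome, in which helicases, a GTPase and modifying enzymes drive the folding and cleavages that release the pre-40S particle. In yeast the genes for these factors are known to be transcribed together, at high levels in rich medium and at low levels when nutrients run short or cells are stressed. The transcripts measured here encode the proteins of the pathway, and neither the U3 RNA nor the rRNA itself.

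All 55 genes lay far above the background, which was taken as the 95th percentile of the probe sets for S. pombe (a signal of 5.09). The lowest signal of any of them on any array was 175, and mean signals over the 11 arrays ran from 286 for ESF1 to 6111 for SNU13. They varied little between WT cultures, with a median SD of 0.12 on the log2 scale over the 3 WT arrays, against 0.17 over all genes tested. Genes tested also include many with lower signals, and the SDs were not matched for signal. None of the 55 genes lies on chromosome IX in the R64 gene table. This bears on the values below, because signals of chromosome IX genes were raised 1.67-fold on ΔS15 replicate 1 and on R11ΔS15 replicate 2. The number of arrays limits the precision, and estimates against WT had a median standard error of 0.16 on the log2 scale.

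The hybridization spike-ins separated the arrays into a brighter set, with mean log2 signals of 10.81 to 10.98, and a dimmer set, with 10.61 to 10.66. Every array without serine 15 was in the dimmer set together with WT replicate 3, and the brighter set held all others. For ACT1, the ratio of 3′ over 5′ probe set signals followed the same split (1.26 to 1.35 in the brighter set and 1.04 to 1.11 in the dimmer set). The labels name no such batch, and WT was the only strain with arrays in both sets. For this reason each comparison of ΔS15 or R11ΔS15 with WT is also given with the spike-in set as a term of the fit, where WT replicate 3 carries the comparison. The part that the spike-in split plays in the results was not tested beyond these values.

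Medians of the processome transcripts were clearly below WT on both R11ΔS15 arrays and on 1 of the 2 ΔS15 arrays, and within 0.07 of the WT mean on the log2 scale on the other mutant arrays. Relative to the mean of the 3 WT arrays, the median of the 55 genes was -0.34 on the log2 scale on R11ΔS15 replicate 1 and -0.28 on replicate 2, with 53 and 52 of the 55 genes below the WT mean (48.1% and 49.7% of all genes). On ΔS15 replicate 1 the median was -0.36, with 47 genes below (56.9% of all genes), and on ΔS15 replicate 2 it was -0.06, with 37 genes below, where 39.0% of all genes were. Replicate 1 of R11 and of K11 had medians of 0.04 and 0.02, with 25 and 24 genes below (54.96% and 52.67% of all genes). Replicate 2 of R11 and of K11 had -0.05 and -0.07, with 34 and 43 genes below (51.9% and 53.0% of all genes). K11 replicate 2 thus had more members on the lower side than ΔS15 replicate 2, at a similar median. The share of all genes on the lower side was also greater on K11 replicate 2 (53.0% against 39.0%). The median of all genes was -0.01 on K11 replicate 2 and 0.05 on ΔS15 replicate 2. The single WT arrays had medians of 0.03, 0.03 and -0.03. These signals are relative to the rest of the RNA on the array, and in a bulk culture fewer expressing cells and less RNA per cell cannot be told apart.

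**Figure D1:**
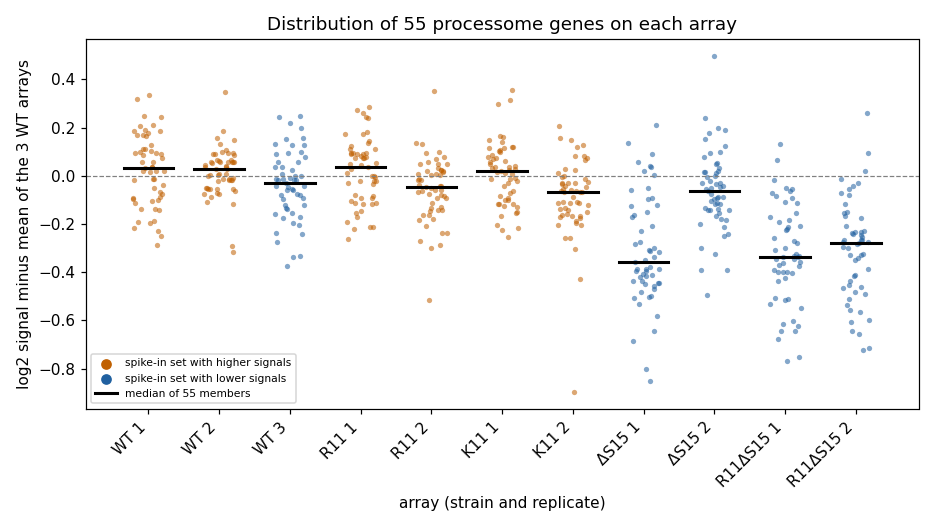
Log2 signal of each of the 55 processome genes minus the mean of the 3 WT arrays (y axis), for each of the 11 arrays (x axis); each point is a gene, black bars are medians and colour gives the spike-in set. The medians of both R11ΔS15 arrays (-0.34 and -0.28) and of ΔS15 replicate 1 (-0.36) lie below those of the other 8 arrays.

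WT replicate 3, the WT array of the dimmer spike-in set, was slightly low for these genes. It lay below the WT mean in 36 of the 55 genes, where 38.4% of all genes did. Against the other WT arrays its median was -0.04, with 25 of the 55 genes below both and 16 above both (26.2% and 47.6% of all genes), and single genes ranged from -0.56 to 0.37. Measured against WT replicate 3 alone, the medians were -0.30 and -0.29 on the R11ΔS15 arrays, with 48 and 53 genes below it, where 55.4% and 63.1% of all genes were below it. ΔS15 replicate 1 had a median of -0.28 (47 genes below it; all genes, 63.6%) and ΔS15 replicate 2 one of -0.03 (42 genes; all genes, 52.4%). Within the dimmer set, ΔS15 replicate 2 thus again lay nearer to WT than the other mutant arrays. Against the mean of the WT arrays of the brighter set, replicate 1 of R11 and K11 had medians of 0.01 and -0.02 (25 and 30 genes below; all genes, 49.3% and 46.7%), and replicate 2 had -0.09 and -0.13 (42 and 41 genes below; all genes, 46.5% and 48.0%).

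**Figure D2:**
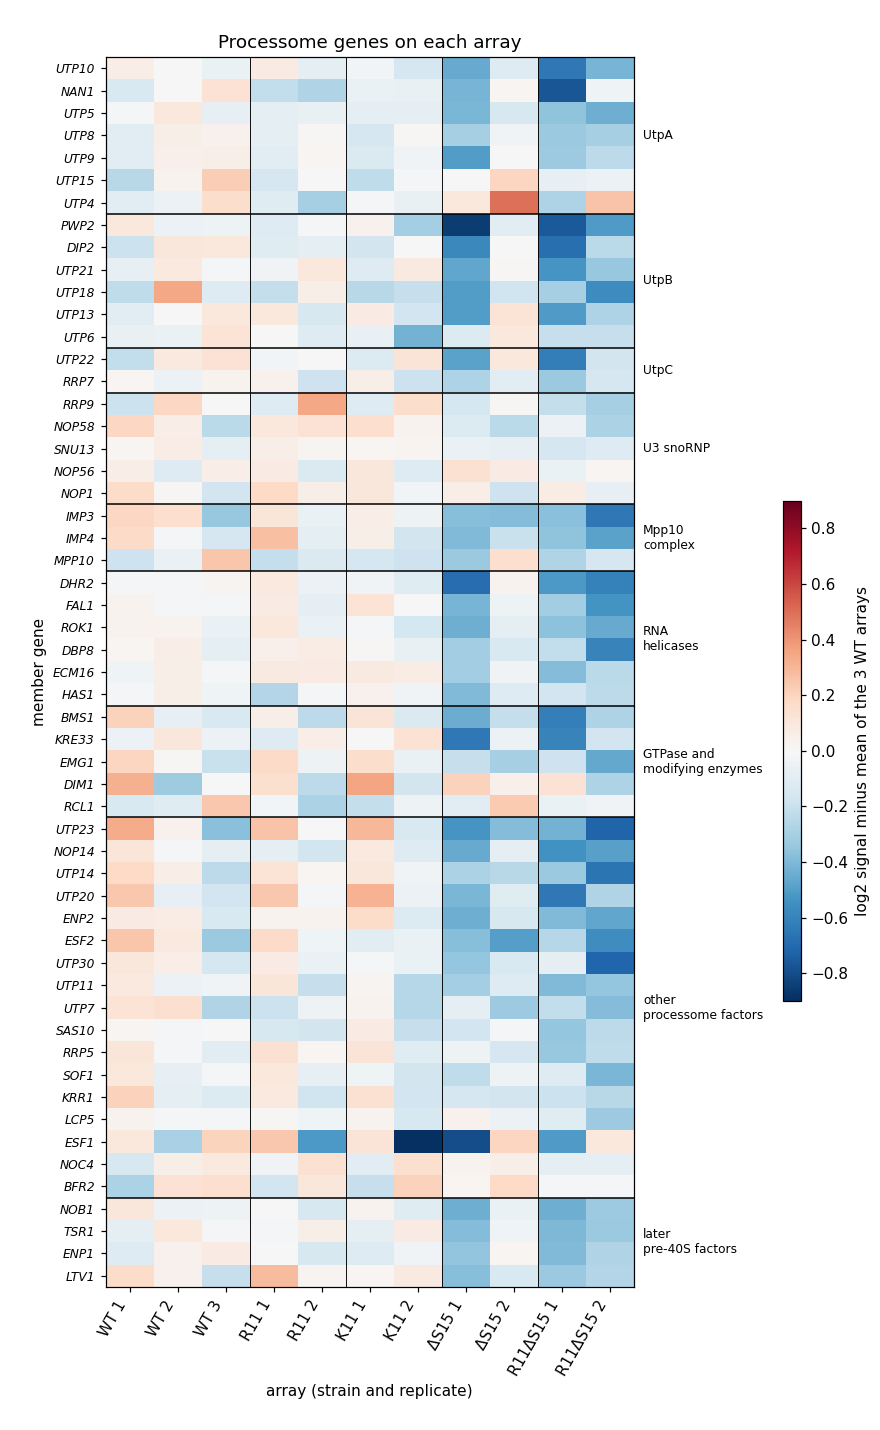
Log2 signal minus the mean of the 3 WT arrays (colour scale) for the 55 processome genes (rows, grouped by complex or role) on the 11 arrays (columns). Blue cells, below the WT mean, fill most of the columns of ΔS15 replicate 1 and of both R11ΔS15 replicates, whereas the U3 snoRNP rows are paler (median -0.14 in R11ΔS15 against WT).

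The comparison of R11ΔS15 with WT asked how processome transcripts differed when the inserted arginine was combined with the serine deletion. All 55 genes had an estimate below 0, where 49.6% of all genes did, with a median log2 fold change of -0.33 and a range from -0.63 (PWP2) to -0.00 (NOP1). In 38 genes both R11ΔS15 arrays lay below all 3 WT arrays, against 12.6% of all genes, and in none of the 55 did both lie above (10.6% of all genes). Estimates lower by more than 1.3-fold were found for 25 of the 55 genes and for 3.88% of all genes. No gene of the array passed limma's test after Benjamini-Hochberg adjustment over 5415 genes (percent called 0), and the smallest adjusted p of a processome gene was 0.449. At an unadjusted p under 0.05 limma counted 31 of the 55 genes, all lower, against 5.71% of all genes in that direction and 4.34% in the other. The 31 became 23 without WT replicate 1 and 22 without WT replicate 2, and stayed at 31 without WT replicate 3. The share of all genes was not counted for these fits. Without R11ΔS15 replicate 1 the median was -0.28, and without replicate 2 it was -0.34 (all genes, 0.0013 and 0.0108). With the spike-in set as a term the median was -0.29, 53 genes had an estimate below 0 (60.1% of all genes), and 7 had an unadjusted p under 0.05 (1.72% of all genes).

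The proteins of the U3 snoRNP, which package the guide RNA of the processome, had the estimates closest to WT among the 9 groups of factors (median -0.14 over 5 genes in R11ΔS15). NOP1, the methyltransferase fibrillarin shared by all box C/D snoRNPs, had signals of 5985, 5363 and 4723 in WT, 6045 and 5521 in R11, 5737 and 5237 in K11, 5549 and 4693 in ΔS15, and 5582 and 5076 in R11ΔS15. Both R11ΔS15 arrays fell inside the WT range, and the log2 fold change was -0.00 (95% confidence interval -0.24 to 0.24). SNU13, whose protein also serves in the U4 snRNP of the spliceosome, had 6283, 6514 and 5886 in WT, 6440 and 6326 in R11, 6307 and 6327 in K11, 5976 and 5912 in ΔS15, and 5595 and 5736 in R11ΔS15. Its R11ΔS15 arrays were the lowest of the 11, although by little (-0.14, standard error 0.06). The scaffold genes NOP56 and NOP58, which like NOP1 and SNU13 serve all box C/D snoRNPs, had -0.02 and -0.17.

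RRP9 encodes the member of this group that is specific to U3. Its signals were 884, 1146 and 1013 in WT, 929 and 1286 in R11, 930 and 1125 in K11, 902 and 1018 in ΔS15, and 870 and 822 in R11ΔS15. The R11ΔS15 arrays were again the lowest of the 11, and the log2 fold change was -0.25 (standard error 0.16). With the spike-in set as a term the group had a median of -0.06, with NOP1 at 0.17 and RRP9 at -0.26. All genes of this group but RRP9 have high signals, and the 829 genes of the array with a mean log2 signal of 11 or more had a median of -0.06 in the same comparison.

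UtpA binds the 5′ end of the precursor first and has also been tied to rDNA transcription in yeast. Its 7 genes had a median log2 fold change of -0.32 in R11ΔS15, and 4 did not overlap with WT. UTP10, which encodes its large HEAT-repeat subunit, had 1695, 1630 and 1565 in WT, 1712 and 1535 in R11, 1605 and 1467 in K11, 1187 and 1501 in ΔS15, and 1042 and 1220 in R11ΔS15. Only ΔS15 replicate 1 came as low as the R11ΔS15 arrays, and the log2 fold change was -0.53 (95% confidence interval -0.81 to -0.25). UTP4, a WD-repeat subunit of the same complex, had 706, 731 and 845 in WT, 701 and 617 in R11, 750 and 724 in K11, 808 and 1070 in ΔS15, and 625 and 907 in R11ΔS15. The R11ΔS15 replicates of UTP4 lay on opposite sides of WT (-0.01, interval -0.40 to 0.38), and the highest of its 11 signals was on ΔS15 replicate 2. UTP15 (-0.06) was the other UtpA gene near 0, and UTP5, UTP8, UTP9 and NAN1 had -0.40, -0.32, -0.28 and -0.41.

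UtpB, which joins next and contacts both the precursor and U3, had a median of -0.43 over 6 genes, and in all 6 both R11ΔS15 arrays lay below WT. Against the WT mean, its median was -0.52 on R11ΔS15 replicate 1 and -0.31 on replicate 2. On replicate 2 the helicases (-0.49), the Mpp10 complex (-0.48) and the single factors (-0.35) were lower. PWP2, the gene for its tandem WD-repeat subunit, had 1320, 1192 and 1198 in WT, 1142 and 1221 in R11, 1269 and 1001 in K11, 684 and 1157 in ΔS15, and 733 and 866 in R11ΔS15. The 2 arrays of R11ΔS15 and ΔS15 replicate 1 stood apart from the other 8 arrays. The estimate for PWP2 was the lowest of the 55 genes (95% confidence interval -1.06 to -0.21; adjusted p = 0.449 by limma with Benjamini-Hochberg). UTP6 was the UtpB gene closest to WT, with 913, 921 and 1045 in WT, 955 and 886 in R11, 913 and 713 in K11, 879 and 1025 in ΔS15, and 829 on both R11ΔS15 arrays. Its lowest signal was on K11 replicate 2, and its R11ΔS15 estimate was -0.21 (standard error 0.14). DIP2, UTP13, UTP18 and UTP21, which encode the remaining WD-repeat subunits, had -0.46, -0.39, -0.43 and -0.44. With the spike-in set as a term the UtpB median was -0.45.

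UtpC was represented by UTP22 and RRP7, which in yeast act with casein kinase II in this complex. UTP22 had 850, 1053 and 1080 in WT, 973 and 991 in R11, 908 and 1074 in K11, 709 and 1054 in ΔS15, and 643 and 881 in R11ΔS15. WT replicate 1 fell below R11ΔS15 replicate 2, so the groups overlapped, and the log2 fold change was -0.39 (standard error 0.19). RRP7 had 1640, 1561 and 1659 in WT, 1659 and 1424 in R11, 1677 and 1413 in K11, 1338 and 1518 in ΔS15, and 1287 and 1456 in R11ΔS15. Both R11ΔS15 arrays were below WT, but so were R11 replicate 2 and K11 replicate 2, and the estimate was -0.24 (standard error 0.12).

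The Mpp10 complex helps U3 to pair with the precursor, and its 3 genes had a median of -0.42 in R11ΔS15. IMP3 had 2504, 2454 and 1743 in WT, 2381 and 2112 in R11, 2302 and 2135 in K11, 1686 and 1683 in ΔS15, and 1698 and 1410 in R11ΔS15. The signals followed the spike-in sets, with WT replicate 3 close to the ΔS15 arrays. The IMP3 estimate accordingly went from -0.51 (95% confidence interval -0.85 to -0.17) to -0.17 with the spike-in set as a term. MPP10 showed the opposite order in WT, with 570, 622 and 772, beside 560 and 593 in R11, 583 and 569 in K11, 515 and 721 in ΔS15, and 539 and 585 in R11ΔS15. Its estimate was -0.21 (standard error 0.17), and -0.46 with the spike-in set as a term, so that within this small complex the term moved single genes in both directions. IMP4, which encodes the remaining subunit, had -0.42 and -0.27.

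The 6 RNA helicase genes with a probe set had a median of -0.41, and in all 6 both R11ΔS15 arrays lay below all WT arrays. DHR2, a DEAH-box helicase gene, had 1044, 1046 and 1072 in WT, 1122 and 1017 in R11, 1033 and 976 in K11, 655 and 1076 in ΔS15, and 736 and 691 in R11ΔS15. WT, R11 and K11 arrays kept within 976 to 1122, and only ΔS15 replicate 1 joined R11ΔS15 below them. The estimate was -0.56 (95% confidence interval -0.94 to -0.18; -0.59 with the spike-in set as a term). HAS1, whose helicase also acts in large subunit assembly, had 2560, 2687 and 2513 in WT, 2157 and 2556 in R11, 2655 and 2529 in K11, 1965 and 2386 in ΔS15, and 2300 and 2192 in R11ΔS15. The lowest HAS1 signals were on ΔS15 replicate 1 and R11 replicate 1, and its R11ΔS15 estimate of -0.20 (standard error 0.11) was the closest to WT among the helicases. ECM16, the helicase gene (Dhr1) whose product removes U3 from the pre-rRNA, had -0.32, and the DEAD-box genes FAL1, ROK1 and DBP8 had -0.42, -0.41 and -0.41.

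Among the enzymes, BMS1 and RCL1 encode partners: the GTPase Bms1 brings the cyclase-like protein Rcl1 to the pre-ribosome. BMS1 had 1759, 1447 and 1385 in WT, 1580 and 1291 in R11, 1649 and 1388 in K11, 1118 and 1314 in ΔS15, and 993 and 1256 in R11ΔS15. Its ΔS15 and R11ΔS15 signals all lay below WT, as did that of R11 replicate 2, with a log2 fold change of -0.45 in R11ΔS15 (standard error 0.16; -0.31 with the spike-in set as a term). RCL1 had 731, 745 and 952 in WT, 791 and 658 in R11, 692 and 780 in K11, 751 and 948 in ΔS15, and 772 and 788 in R11ΔS15. WT replicate 3 and ΔS15 replicate 2 were high for RCL1 while the other 9 arrays ran from 658 to 791, so that the estimate was -0.04 against all WT arrays and -0.29 with the spike-in set as a term. The acetyltransferase gene KRE33 had -0.39, and the rRNA methyltransferase genes EMG1 and DIM1 had -0.32 and -0.07. DIM1 was variable in WT itself, with 2230, 1435 and 1783.

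The 17 single factors had a median of -0.31, and 11 did not overlap with WT. UTP23, which encodes a PIN-domain protein needed to release the snR30 RNA, had 3394, 2763 and 2074 in WT, 3221 and 2696 in R11, 3305 and 2441 in K11, 1859 and 2054 in ΔS15, and 2004 and 1629 in R11ΔS15. As for IMP3, WT replicate 3 was the lowest WT array and close to the ΔS15 arrays, and the estimate went from -0.57 (95% confidence interval -0.999 to -0.15) to -0.20 with the spike-in set as a term. BFR2, whose product works with Enp2 and the Dbp4 helicase, had 1267, 1694 and 1718 in WT, 1373 and 1654 in R11, 1339 and 1781 in K11, 1564 and 1748 in ΔS15, and 1526 and 1531 in R11ΔS15. Its lowest signals were on replicate 1 of WT, R11 and K11, and its R11ΔS15 estimate was -0.02 (standard error 0.16), whereas ENP2 had -0.43. NOP14 and NOC4 encode partner proteins too, and they had -0.52 and -0.09.

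NOP14 had 1217, 1112 and 1058 in WT, and 771 and 802 in R11ΔS15, with 825 and 1060 in ΔS15. Both R11ΔS15 signals were below every other array, and the estimate was -0.43 with the spike-in set as a term. UTP14, the gene for the activator of the Dhr1 helicase, had 2187, 2009 and 1640 in WT, and 1534 and 1227 in R11ΔS15, with 1587 and 1626 in ΔS15. Its estimate went from -0.49 to -0.26 with the term, following the low signal of WT replicate 3. RRP5, whose product is needed for both subunits, had -0.29. ESF1, the member with the lowest signals, had 348, 266 and 374 in WT, 385 and 228 in R11, 353 and 175 in K11, 187 and 373 in ΔS15, and 228 and 348 in R11ΔS15. Replicates of ESF1 differed more than strains did (-0.21, 95% confidence interval -1.0 to 0.58).

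The later pre-40S factors stay on the particle after the processome has come apart. All 4 of their genes had both R11ΔS15 arrays below WT, with a median of -0.35 with or without the spike-in set as a term. NOB1, the gene for the endonuclease that makes the 3′ end of 18S rRNA, had 1312, 1181 and 1187 in WT, 1223 and 1110 in R11, 1253 and 1137 in K11, 905 and 1174 in ΔS15, and 905 and 979 in R11ΔS15. The R11ΔS15 arrays shared the bottom of this range with ΔS15 replicate 1, and the estimate was -0.38 (standard error 0.13). LTV1, which encodes a factor that leaves the pre-40S particle as it matures, had 1264, 1155 and 975 in WT, 1372 and 1145 in R11, 1138 and 1190 in K11, 864 and 1022 in ΔS15, and 891 and 935 in R11ΔS15. WT replicate 3 was again the lowest WT array for LTV1, and its estimate of -0.30 (standard error 0.14) went to -0.10 with the spike-in set as a term. TSR1 and ENP1 had -0.37 and -0.33.

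**Figure D3:**
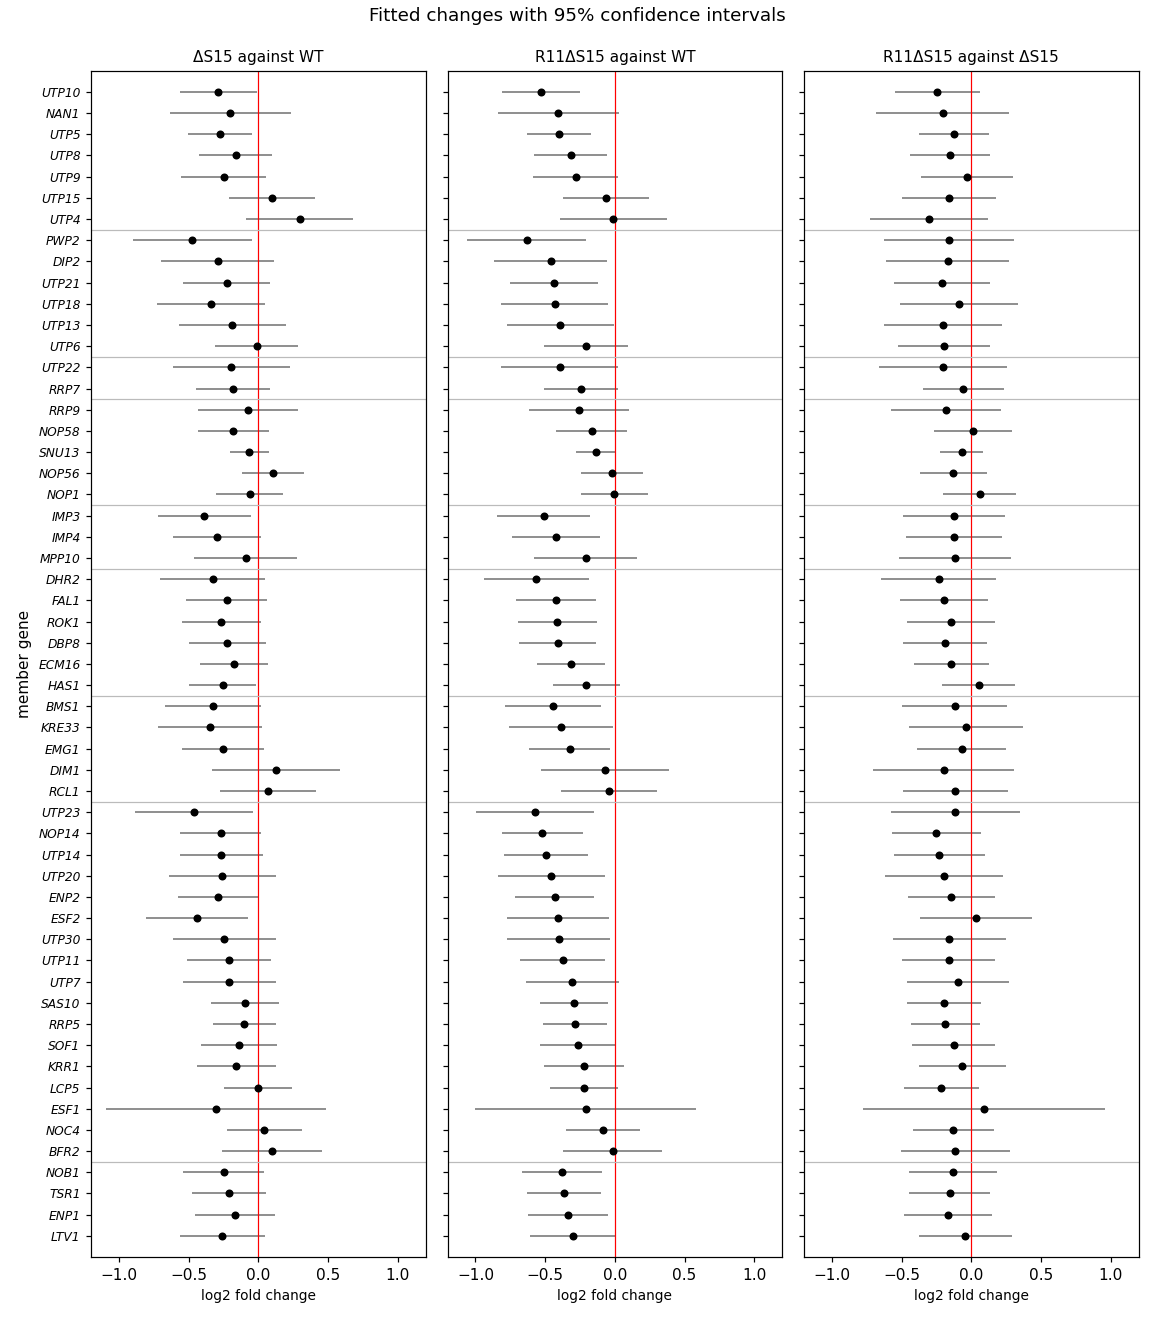
Fitted log2 fold changes (x axis, points) with 95% confidence intervals (lines) for the 55 processome genes (rows, in the order of the groups of factors) in 3 comparisons (panels). The interval lies below 0 for 31 genes in R11ΔS15 against WT, for 8 genes in ΔS15 against WT and for none in R11ΔS15 against ΔS15.

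Deletion of serine 15 alone was compared with WT next. In ΔS15 the median log2 fold change of the 55 genes was -0.21, with a range from -0.47 (PWP2) to 0.30 (UTP4), and 48 estimates were below 0 (49.2% of all genes). In 21 genes both ΔS15 arrays lay below all WT arrays, against 7.79% of all genes, and NOP56 was the only member for which both lay above (3492 and 3358, against 3314, 2934 and 3315 in WT, where 7.9% of all genes did). No gene of the array passed limma's test (percent called 0; smallest adjusted p of a member 0.782 with Benjamini-Hochberg), and 8 members had an unadjusted limma p under 0.05, all lower, against 2.6% of all genes (2.68% higher). Leaving out ΔS15 replicate 2 made this 21 members. It was 1 member when either ΔS15 replicate 1 or WT replicate 2 was left out, and 2 when WT replicate 1 was. Estimates lower by more than 1.3-fold were found for 4 members (2.38% of all genes). With the spike-in set as a term the median was -0.15, 47 estimates were below 0 (62.5% of all genes), and no member had an unadjusted p under 0.05 (0.259% of all genes).

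The ΔS15 values came mostly from replicate 1. Its signal was below that of replicate 2 in 43 of the 55 genes, and below every WT array in 41 genes (32.4% of all genes), whereas replicate 2 was below every WT array in 26 genes (14.5% of all genes). Without replicate 1 the ΔS15 median was -0.06, and without replicate 2 it was -0.36 (all genes, 0.05 and -0.04). PWP2 had 684 on replicate 1 and 1157 on replicate 2, DHR2 655 and 1076, and KRE33 1298 and 1953. In each of these genes replicate 2 lay within or next to the WT range. Some of the 21 genes with both arrays below WT had like signals on both, for example IMP3 (1686 and 1683), EMG1 (2591 and 2436) and ESF2 (803 and 744). In these 3 genes WT replicate 3 was the lowest WT array (1743, 2613 and 832). For RRP7 (1338 and 1518), in contrast, WT replicate 3 was the highest WT array (1659). ΔS15 replicate 1 is also an array with raised chromosome IX signals, and its part in the values of the members was not tested.

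Among the groups of factors, the U3 snoRNP again had the median nearest to 0 in ΔS15. Medians were -0.30 for the Mpp10 complex, -0.26 for UtpB, -0.25 for the enzymes, -0.24 for the helicases, -0.23 for the later pre-40S factors, -0.21 for the single factors, -0.20 for UtpA, -0.19 for UtpC and -0.07 for the U3 snoRNP. With the spike-in set as a term they were -0.14 for the Mpp10 complex, -0.25 for UtpB and -0.17 for the enzymes. The helicases had -0.21, the later pre-40S factors -0.20 and the single factors -0.09 with that term. UtpA had -0.20, UtpC -0.27 and the U3 snoRNP 0.05, so that the order of the groups depended on the term. Both mutants share the WT controls, so that these values are not independent of those of R11ΔS15.

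R11ΔS15 and ΔS15, which are in the same spike-in set, were compared to isolate the inserted arginine in the absence of serine 15. Of the 55 genes, 50 had a lower estimate in R11ΔS15 (49.8% of all genes), with a median of -0.14 and a range from -0.30 (UTP4) to 0.09 (ESF1). The median was -0.03, with 33 genes below 0, without ΔS15 replicate 2, and -0.27, with 51 below 0, without ΔS15 replicate 1. Medians of all genes moved in the same direction, with 0.04 without ΔS15 replicate 2 and -0.04 without replicate 1. ΔS15 replicate 1 and R11ΔS15 replicate 2 are the arrays with raised chromosome IX signals. Without both of them the median was -0.26, with 47 genes below 0 (all-gene median -0.02). Both R11ΔS15 arrays lay below both ΔS15 arrays in 15 genes (7.94% of all genes). In none of the 55 did both lie above (8.37% of all genes). Limma called no gene (percent called 0), no processome gene had an unadjusted p under 0.05 (0.314% of all genes were lower and 0.111% higher at that p), and the 95% confidence intervals of single genes ran from -0.77 to 0.96, both bounds those of ESF1.

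The ΔS15 replicates set the size of this difference. Against ΔS15 replicate 2 alone, both R11ΔS15 arrays were lower in 47 of the 55 genes (39.8% of all genes), and against ΔS15 replicate 1 alone in 17 (18.9%). On both R11ΔS15 arrays 9 members lay below all 9 other arrays of the study, against 2.77% of all genes, among them RRP9 (822 and 870, with 884 the next lowest), SNU13, NOP14, UTP14 and RRP5 (2113 and 2290, with 2412 the next lowest). On each R11ΔS15 array 43 members lay below every WT array (25% and 28.6% of all genes), and replicate 1 was lower than replicate 2 in 31 of the 55.

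R11 and K11 were set against WT to see whether an insertion at position 11 alone went with a difference in processome transcripts. In R11 the median of the 55 genes was -0.03, with 32 estimates below 0 (56.5% of all genes) and a range from -0.25 (NAN1) to 0.16 (LTV1). Both R11 arrays lay below all WT arrays in UTP4, NAN1 and SAS10 (4.71% of all genes) and above in ECM16 (3.62%). In K11 the median was -0.04, with 37 estimates below 0 (55.5% of all genes) and a range from -0.39 (ESF1) to 0.13 (UTP20). Both K11 arrays lay below WT in UTP5, UTP6 and DHR2 (4.17% of all genes) and above in ECM16 (4.6%). The percentages of members without overlap were thus close to those of all genes in both strains (5.45% lower in each). All R11 and K11 arrays are in the brighter spike-in set, so the set was also added as a term. The medians were then -0.03 in R11 and -0.05 in K11, with 37 and 43 estimates below 0 (47.4% and 46.9% of all genes).

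No gene passed limma's test in R11 or K11 against WT (percent called 0). No member had an unadjusted limma p under 0.05 in either strain, where 0.259% of all genes did on the lower and 0.0923% on the higher side in R11, and 0.277% and 0.148% in K11. These shares are far below the fraction of 0.05 that p-values would give if no gene differed. The absence of small p-values therefore says little about small differences here. The same holds for R11ΔS15 against ΔS15, R11 against K11 and the difference between the effects of R11. The cause of these low shares was not tested. Across members, 95% confidence intervals reached from -0.93 to 0.65 in R11 and from -1.18 to 0.55 in K11, both set at the low end by ESF1. The largest estimates either way were 1.19-fold in R11 and 1.31-fold in K11. In both strains the median was above the WT mean on replicate 1 and below it on replicate 2, and over all genes the deviations of same-numbered WT, R11 and K11 arrays correlated, with Pearson's r between 0.49 and 0.66 over 6 pairs of arrays. In a strain with 2 arrays the deviations from its mean are mirror images, so both pairs of R11 with K11 give the same r (0.66). With the replicate number as a block the medians were -0.03 in R11 and -0.05 in K11, and limma again called no gene.

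Arginine and lysine at position 11 were then compared directly. The median over the 55 genes was 0.02 for R11 minus K11, with 19 estimates below 0 (50.9% of all genes), and estimates ran from -0.18 to 0.25. Both arrays of R11 lay below both of K11 in 2 genes (8.9% of all genes) and above in 2 (8%). Limma called no gene (percent called 0), no member had an unadjusted p under 0.05 (0.185% of all genes lower and 0.0369% higher), and the 95% confidence intervals of members ran from -0.66 to 1.12. ECM16, the member with both insertions above WT, had 1579 and 1571 in R11 and 1575 and 1561 in K11, against 1451, 1549 and 1473 in WT, with log2 fold changes of 0.08 and 0.07.

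The effect of R11 without serine 15 was also tested against its effect with serine 15 present. This difference had a median of -0.11 over the 55 genes, with 47 estimates below 0 (44.5% of all genes) and a range from -0.31 to 0.23. Without ΔS15 replicate 2 the median was -0.0044, with 28 below 0, and without ΔS15 replicate 1 it was -0.25, with 51 below 0. Medians of all genes were 0.06 and -0.02 in these fits. Without both arrays with raised chromosome IX the median was -0.25, with 46 below 0 (all-gene median -0.01). No gene of the array passed limma's test for it (percent called 0), no processome gene had an unadjusted limma p under 0.05 (0.0923% of all genes lower and 0.0369% higher), and intervals of single genes ran from -0.94 to 1.40. A difference between the effects of R11 in both contexts was therefore not shown for any member.

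Neighbouring parts of the pathway were described with the same fit, to place the processome genes in R11ΔS15 against WT. Large subunit assembly factors had a similar median (-0.34, with 65 of 67 below 0), and 30 other factors of small subunit synthesis, such as RRP12, had -0.25 (27 below 0). Small subunit ribosomal protein genes had -0.15 (50 of 53 below 0). Of all genes tested, 49.6% were below 0. Limma called no gene of these lists. With the spike-in set as a term the medians were -0.22, -0.13 and -0.05, beside -0.29 for the processome and -0.05 for all genes tested. In ΔS15 they were -0.17, -0.13 and -0.08, beside -0.21. With the term the ΔS15 medians were -0.09, -0.03 and 0.005, beside -0.15 for the processome and -0.05 for all genes tested.

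Of 8 regulators of ribosome synthesis genes, 6 had estimates below 0 in R11ΔS15 against WT (median -0.17; 49.6% of all genes below 0), and none passed the test. With the spike-in set as a term the median was -0.13, with 7 below 0 (60.1% of all genes). The repressor genes TOD6 and DOT6, whose products bind the promoters of many such genes, had -0.42 and -0.23. The activator gene SFP1 had -0.13, the kinase gene SCH9 -0.21, and STB3 -0.04. For regulators of ribosomal protein genes, the estimates were -0.29 for IFH1, 0.05 for FHL1 and 0.50 for CRF1.

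**Figure D4:**
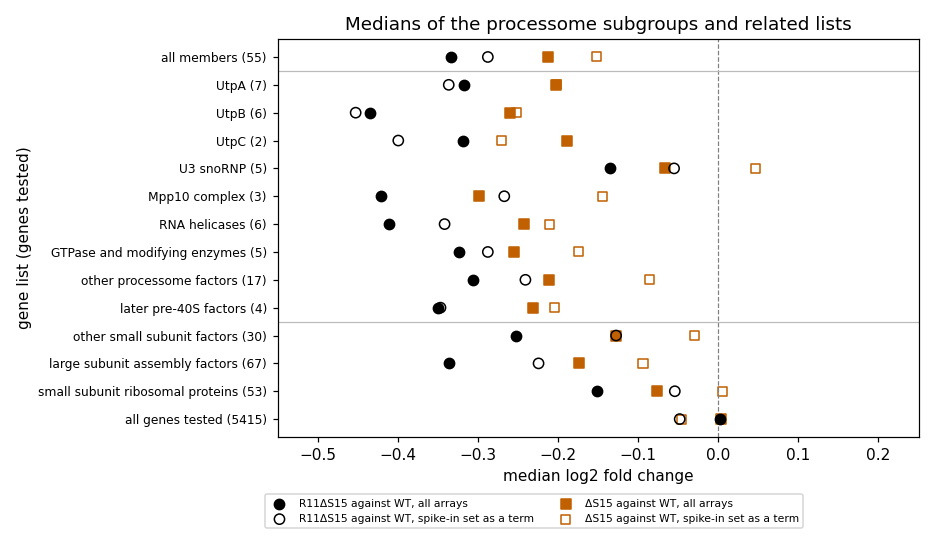
Median fitted log2 fold change against WT (x axis) for all 55 processome genes, the 9 groups of factors, 3 related gene lists and all genes tested (rows, with the number of genes). Filled symbols use all arrays and open symbols add the spike-in set as a term; R11ΔS15 (circles) lies left of ΔS15 (squares) of the same fill in each processome group, and the U3 snoRNP lies closest to 0.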

How the data were processed

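RNA of 5 strains was measured on 11 arrays. The authors deposited MAS5 signal intensities, for which a core facility labelled poly(A) RNA and followed the manufacturer's normalization. The MAS5 version is not given in the sources used here. The mean of each array without the lowest and highest 2% of values was 500.2 to 500.3, so no scaling was added. Probe sets were named with the array annotation and the R64 gene table: of 10928 probe sets, 5498 had an S. cerevisiae gene, 1746 an S. pombe gene and 213 were controls. Genes whose mean log2 signal exceeded the background of 2.35 (the 95th percentile of the S. pombe probe sets) were tested, with 1 probe set per gene.

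The model, with a coefficient for each strain, was run on log2 of the deposited intensities in limma 3.58.1 (R 4.3.3), with variances moderated with a trend on the mean signal, and Benjamini-Hochberg adjustment over 5415 genes (threshold 0.05). Groups were counted as not overlapping where every array of a strain lay below every array of the other. The fit was also run on simulated data, with independent errors and larger differences than the medians reported here. That run cannot show how the test behaves with the spike-in split and the correlated arrays of these data. The processome members, the gene lists and the tests were chosen with earlier results of these data known, and lists are therefore described by counts and medians with no test. For each of 9 groups of factors, the genes with the lowest and the highest R11ΔS15 estimate were shown in full, together with the members of highest and lowest mean signal. Other genes are given where their role is described, chosen after their values were seen. Alternatives were quantile normalization, median centring, an offset of 50, a stricter or no filter on dim probe sets, leaving out shared probe sets, a fit without the trend, the replicate number as a block, the spike-in set (12 probe sets of bioC, bioD and cre) as a term, and leaving out single arrays or both arrays with raised chromosome IX. Arrays were not paired by replicate number, since the labels name no shared batch. A search of promoters for sequence motifs was not run, and DBP4 was not analysed here. Python 3.11.15 and matplotlib 3.10.9 were used for summaries and figures.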

Additional observations from a re-analysis of the deposited data

Results flagged for a closer look

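In 3 of the genes shown in full, the arginine at position 11 went with opposite directions on every array with and without serine 15. This holds against the means of all WT arrays and of the ΔS15 arrays, where limma's test of the difference did not pass (adjusted p = 1.0 for each with Benjamini-Hochberg). HAS1 was lower on both R11 arrays than the WT mean (-0.26 and -0.02 on the log2 scale) and higher on both R11ΔS15 arrays than the ΔS15 mean (0.09 and 0.02), a difference of 0.19 (standard error 0.16). LTV1 was higher in R11 (0.29 and 0.03) and lower in R11ΔS15 than in ΔS15 (-0.08 and -0.01), a difference of -0.20 (standard error 0.21). SNU13 had 0.05 and 0.02 in R11, and -0.09 and -0.05 in R11ΔS15, a difference of -0.11 (standard error 0.10). All R11 arrays are in the brighter spike-in set, whereas the WT mean includes WT replicate 3. Against the WT arrays of the brighter set, the R11 arrays had 0.18 and -0.08 for LTV1 and 0.01 and -0.02 for SNU13. Only HAS1 (-0.28 and -0.04) kept its direction on both R11 arrays there. The share of all genes with such a pattern was not counted.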

How the results depend on the processing

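Of the alternatives tried for counts, medians and the genes shown in full, 1125 values were labelled as unchanged. A further 41 were labelled as reversed, 24 counts or medians moved and 5 passed the threshold. Unchanged genes kept their direction and their side of the threshold, and unchanged counts stayed within a set ratio. Medians were unchanged where they moved by less than the SD of the array medians, even if the sign changed. Without K11 replicate 2 this was so for K11 against WT (-0.04 to 0.02) and for R11 against K11 (0.02 to -0.02). With 1 array left out at a time, the number of genes passing limma's test ran from 0 to 1 in R11 (1 without R11 replicate 2), from 0 to 38 in ΔS15 (38 without WT replicate 3) and from 0 to 128 in R11ΔS15 (128 without WT replicate 3), against 0 in each with all arrays. The 128 genes held 2 processome genes, IMP3 (log2 fold change -0.68) and UTP14 (-0.61), and the 38 held none. Without WT replicate 3, all WT arrays are in the other spike-in set than ΔS15 and R11ΔS15, so strain and set cannot be told apart. A replicate block, which likewise leaves out WT replicate 3, let 173 genes pass in ΔS15 (4 members) and 343 in R11ΔS15 (8 members), with IMP3 at -0.68 and UTP23 at -0.76 in R11ΔS15. The block called no gene in R11 or K11 against WT or in R11 against K11. Over all genes, deviations from the strain means correlated between 0.49 and 0.66 in the 6 same-numbered pairs of WT, R11 and K11 arrays, and between -0.05 and 0.21 in the 14 pairs with a ΔS15 or R11ΔS15 array. In a strain with 2 arrays the deviations are mirror images. Pairs of such strains therefore give the same r for both replicate numbers, and the pairs are not all separate values. A shared number may mark a shared condition in WT, R11 and K11, which the labels do not name.

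The processome median of R11ΔS15 against WT ran from -0.345 (without WT replicate 3) to -0.277 (without R11ΔS15 replicate 1), and was -0.288 with the spike-in set as a term. In R11 it ran from -0.0472 to 0.0352, the latter without R11 replicate 2, and in K11 it was 0.0195 without K11 replicate 2. The number of members lying wholly below the other strain ran, over left-out arrays, from 3 to 20 in R11 and from 3 to 19 in K11 against WT, from 21 to 41 in ΔS15, from 15 to 47 in R11ΔS15 against ΔS15, and from 2 to 19 in R11 against K11. Leaving out an array can only keep or raise such a count, for members as for all genes, but the rise differed between arrays. In ΔS15 against WT the count was 41 without ΔS15 replicate 2 (32.4% of all genes) and 26 without replicate 1 (14.5%). In R11ΔS15 against ΔS15 it was 47 without ΔS15 replicate 1 (39.8% of all genes) and 17 without replicate 2 (18.9%). The count there was also 47 without both arrays with raised chromosome IX. For R11 and K11 against WT and R11 against K11, the share of all genes was not counted with an array left out.

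Single genes with estimates near 0 or with unequal replicates changed sign. In R11ΔS15 against WT, leaving out 1 array gave -0.279 to 0.259 for UTP4, -0.0900 to 0.0808 for NOP1, -0.111 to 0.0797 for RCL1, -0.159 to 0.0613 for BFR2 and -0.513 to 0.0927 for ESF1. The block gave 0.0684 for UTP4, 0.0797 for RCL1 and 0.0613 for BFR2, and NOP1 had 0.102 with quantile normalization, 0.0661 without both arrays with raised chromosome IX and 0.173 with the spike-in set as a term. In ΔS15 against WT, leaving out 1 array gave -0.124 to 0.0976 for UTP6, -0.481 to 0.0926 for UTP22, -0.169 to 0.0177 for RRP9, -0.184 to 0.0574 for NOP1, -0.335 to 0.151 for MPP10, -0.687 to 0.0304 for DHR2, -0.0971 to 0.239 for RCL1, -0.0453 to 0.178 for BFR2 and -0.801 to 0.196 for ESF1. The upper ends for UTP6, UTP22, MPP10, DHR2 and ESF1 are those without ΔS15 replicate 1, and the same values were found without both arrays with raised chromosome IX, where RRP9 had 0.0130. The block gave 0.0498 for UTP6 and 0.0326 for MPP10. With the spike-in set as a term, NOP1 had 0.112, RCL1 -0.174, BFR2 -0.0551 and SNU13 0.0143. The cause of these changes was not tested. With 2 or 3 arrays a strain, a log2 difference of the size of the medians is within the error of many single genes.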
